A study of Drosophila melanogaster with 48 samples.

Results

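The effect of dietary restriction on the abdominal fat body of the fruit fly was examined in the early dark phase, at 14, 16 and 18 h after lights on (zeitgeber times ZT14, ZT16 and ZT18). The 12 libraries of these times were taken from the 48 of the whole series by diet and time alone, 6 from restricted flies and 6 from control flies. Restricted flies had been kept on food with 5% sucrose and yeast, and control flies on food with 15%. All were mated females of the strain w1118, entered the diets at about 3 days of age and were dissected after 5 days on them, in 12 h of light and 12 h of dark at 25 °C. Each library held tissue of about 10 flies, and each diet had 2 libraries at each time, described by the submitters as biological replicates. The dissected fat adhered to the body wall and carried oenocytes and epidermis, while gut, ovaries and Malpighian tubules were cut away, per the labels' protocols. Total estimated counts of the 12 libraries ranged from 5815484 to 13970886.

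The fat body of insects stores triglyceride and glycogen, makes yolk and blood proteins, and releases peptides that tell the brain about the food supply. Oenocytes are cells of the body wall that make very-long-chain fatty acids and cuticular hydrocarbons. In flies, transcripts of the clock repressors per and tim accumulate in the evening and early night. Dietary restriction of this kind lengthens life in flies and lowers egg laying.

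Some markers of the labelled tissue were present in every library, and others were at or near 0. Per length, the lipoprotein gene apolpp lay between 394 and 1267 TPM in restricted and between 460 and 934 TPM in control libraries. The oenocyte gene Cyp4g1, whose product makes cuticular hydrocarbons, lay between 21387 and 44521 TPM in restricted and between 21689 and 52284 TPM in control libraries. The larval storage gene Lsp1alpha was at 0 in 11 of the 12 libraries. Of the other fat body markers, Lsp1gamma was at 0 in 9 libraries and Fbp1 and Fbp2 in 5 each. Lsp2 lay between 0.133 and 36.4 TPM in restricted and between 1.90 and 69.1 TPM in control libraries. Of 20 epidermis and cuticle markers 11 passed the filter for testing, and resilin was at 0 in 12 of 12 libraries. In bulk tissue, fewer cells of a type and less RNA per cell cannot be told apart, which holds for every value given here.

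No gene passed the test at these 3 times. Of 9543 genes tested, 0 (0% of those tested) had a Benjamini-Hochberg adjusted p under 0.05 in the edgeR quasi-likelihood test with time as a factor and replicate as a block. The smallest adjusted p was 0.118. At an unadjusted p under 0.05, edgeR gave 984 genes higher (10.3%) and 995 lower (10.4%) on the restricted diet. With the ovary and gut marker scores of each library as added terms, described below, 511 of 9543 genes reached that level, 287 higher and 224 lower. The counts of list genes after adjustment, given below, are to be read beside these. DESeq2, run as an alternative with the same design, called 133 genes higher (1.39%) and 178 lower (1.87%), and for 185 genes it gave no adjusted p. Of these 311 genes, 227 differed in the same direction in all 6 pairs of libraries of the same time and replicate. Among all genes tested, 7.60% were higher and 6.99% lower in 6 of 6 pairs. The calls rest on the same 12 libraries, so this count is a description and no separate support. The groups did not overlap for 28 genes that were higher on the restricted diet (0.293%) and for 3 that were lower (0.0314%). The 3 were fu, a kinase of Hedgehog signalling, MED24, a Mediator subunit, and RhoGAP92B, with log2 differences of -0.37 ± 0.10, -0.29 ± 0.09 and -0.37 ± 0.09 (SE). They were named after their values were seen. The median log2 difference over all genes tested was 0.02, and the median SE was 0.18. In a fit to log2(TPM + 1) the median lay 0.10 lower, at -0.07. Differences below are restricted minus control on the log2 scale with their SE from edgeR. CPM are counts scaled to the library total after TMM normalisation.

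Transcripts of other tissues varied between the libraries of each diet. The mean log2 CPM of 29 ovary and eggshell markers had its lowest, median and highest values at -0.73, 1.03 and 5.35 in restricted libraries and at 1.32, 3.88 and 5.07 in control libraries. It was lower in 4 of 6 pairs, with a mean difference of -1.80 (exact permutation over the pairs, two-sided p = 0.125, 0.3 adjusted over 12 scores). The score of 29 gut markers had its lowest, median and highest values at -1.79, 2.17 and 2.68 in restricted libraries and at -1.43, 2.80 and 6.55 in control libraries (difference -1.08, exact p = 0.469). Both scores overlapped widely between diets.

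The score of 13 neuron markers was higher in 5 of 6 pairs, by 0.81 on average (exact p = 0.0625, 0.25 adjusted). It was highest, at 3.09, in the restricted ZT14 replicate 1 library, while the 6 control libraries lay between 0.27 and 1.33. The score of 8 spermatheca and sperm markers was lower in 5 of 6 pairs, by 1.29 on average (exact p = 0.0625). All 6 replicate 2 libraries, of both diets, lay between -0.68 and -0.53 for these genes, so the difference came from replicate 1. The oenocyte score was higher in 6 of 6 pairs, by 0.34 on average (exact p = 0.0313, the smallest that 64 arrangements allow, and 0.25 after adjustment). Its smallest pair difference was 0.0014, in ZT18 replicate 1. The fat body score, a mean over 11 genes, differed by 0.07 (exact p = 0.844). The median difference of these 11 genes was 0.33, with 9 above 0 and 2 below. At an unadjusted edgeR p under 0.05, 5 of the 11 were higher and 0 lower, beside 10.3% of all genes higher. The oenocyte list had a median of 0.34, with 3 of 9 genes higher at that level. With the ovary and gut scores as added terms, the medians were 0.28 and 0.16, with 2 and 0 genes higher. Among the other scores, those of epidermis (0.27), hemocytes (0.28), muscle (0.08) and Malpighian tubule (0.00) had exact p between 0.0938 and 1. The share of counts from ribosomal RNA ranged from 0.111 to 2.24% in restricted and from 0.193 to 4.80% in control libraries. The share from mitochondrial genes ranged from 2.57 to 4.56% in restricted and from 2.19 to 5.69% in control libraries. Control libraries split by replicate series, from 4.98 to 5.69% in replicate 1 and from 2.19 to 2.40% in replicate 2. Restricted libraries ranged from 2.57 to 4.56% in replicate 1 and from 2.61 to 2.85% in replicate 2.

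**Figure D1:**
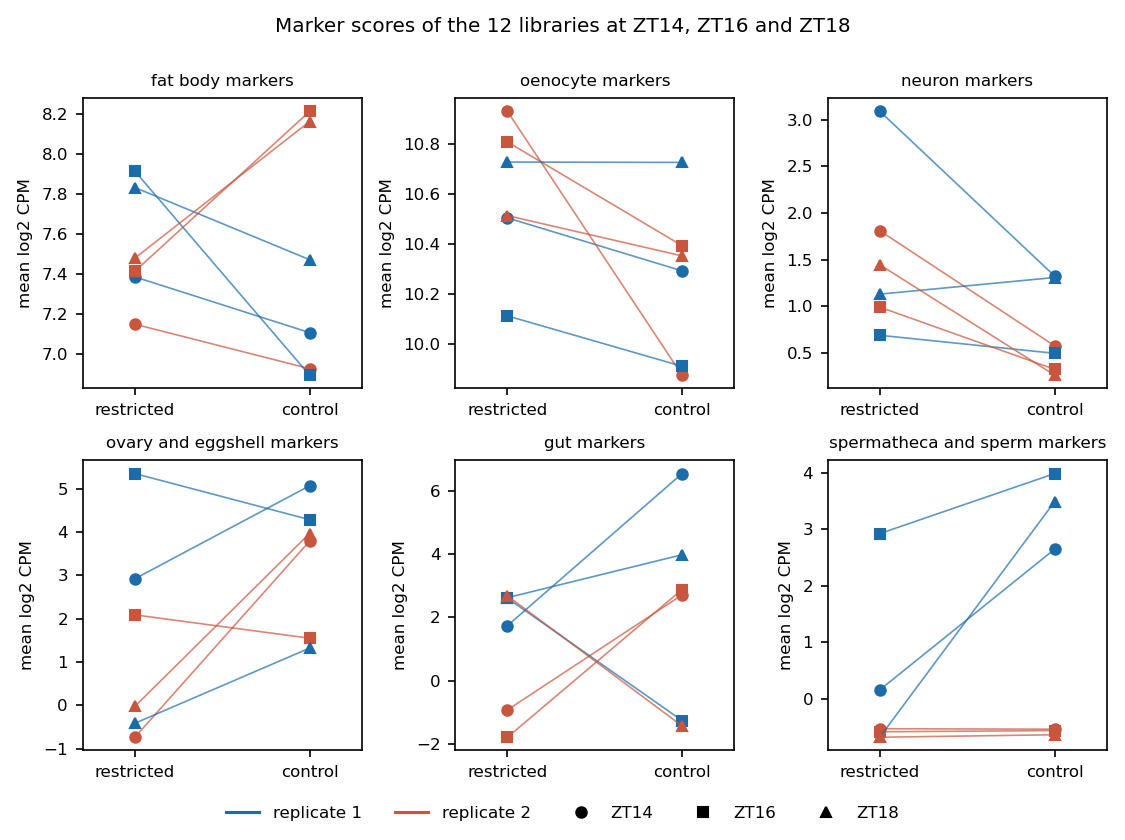
Mean log2 CPM of 6 marker lists in each library (y axis), restricted left and control right; a line joins the 2 libraries of the same time and replicate, colour gives the replicate and the symbol the time. The oenocyte score is higher in 6 of 6 pairs, while ovary and gut scores cross between diets and the spermatheca score differs only among replicate 1 libraries.

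Since no gene passed, the genes below were taken by their unadjusted p among genes with at least 10 CPM and the same direction in 6 of 6 pairs, 12 in each direction, a rule chosen after the values were seen. The 12 on the higher side were CG11842, CG2003, CG4995, Nepl4, CG5254, CG8079, P5cr-2, CG1136, CG6495, Vago, tty and CG7227. Their small p and shared direction were the terms of the choice and are given as a description. CG11842 (FBgn0039629), a predicted serine protease, had 27.4, 42.6 and 68.1 CPM (lowest, median and highest) in restricted libraries and 15.9, 23.8 and 29.8 CPM in control libraries. Only the lowest restricted library, ZT16 replicate 1, lay within the control range. Its difference was 0.95 ± 0.14 (edgeR adjusted p = 0.160, DESeq2 adjusted p = 2.4e-05).

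P5cr-2 (FBgn0038516), a pyrroline-5-carboxylate reductase of proline synthesis, had 45.9, 94.0 and 129 CPM in restricted libraries and 37.4, 48.6 and 75.0 CPM in control libraries. The restricted ZT14 replicate 1 library held the lowest restricted value and was close to its control partner at 41.8 CPM. The difference was 0.75 ± 0.14 (edgeR adjusted p = 0.198). Vago (FBgn0030262), which encodes a secreted antiviral peptide, had 103, 132 and 270 CPM in restricted libraries and 46.3, 77.2 and 88.6 CPM in control libraries, without overlap. Its difference of 1.04 ± 0.21 (edgeR adjusted p = 0.198) was the largest of the 12. Nepl4 (FBgn0031805), of the neprilysin family of metallopeptidases, had 34.6, 38.0 and 68.3 CPM in restricted libraries and 19.8, 27.8 and 33.3 CPM in control libraries, again without overlap, a difference of 0.72 ± 0.12. CG7227 (FBgn0031970) was the remaining gene of the 12 whose groups did not overlap, at 51.7, 63.8 and 99.2 CPM in restricted and 23.3, 38.7 and 49.1 CPM in control libraries.

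CG5254 (FBgn0040383) and CG4995 (FBgn0032219) belong to the family of mitochondrial carriers, which move metabolites across the inner membrane. CG5254 had 37.3, 68.1 and 81.9 CPM in restricted libraries and 23.4, 32.4 and 63.2 CPM in control libraries, a difference of 0.71 ± 0.12. CG4995 had 32.4, 52.0 and 59.5 CPM in restricted libraries and 21.2, 26.3 and 38.0 CPM in control libraries, a difference of 0.77 ± 0.13. The predicted chloride channel gene tty differed by 0.73 ± 0.15, and CG2003, CG8079, CG1136 and CG6495 by 0.53 to 0.79.

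The 12 genes on the lower side were CG4911, Rgl, ADD1, Arc1, Hip1, CG4768, ttk, dl, Pak3, Sema1b, CG43736 and Nedd4, chosen in the same way. CG4911 (FBgn0035959) had 15.7, 23.2 and 47.7 CPM in restricted libraries and 30.1, 47.6 and 72 CPM in control libraries, a difference of -0.76 ± 0.14 (edgeR adjusted p = 0.198). Rgl (FBgn0026376), an exchange factor for the GTPase Ral, had 5.26, 6.55 and 12.1 CPM in restricted libraries and 8.95, 13.3 and 15.7 CPM in control libraries, a difference of -0.75 ± 0.14. ADD1 (FBgn0026573), a chromatin protein, had 10.6, 12.4 and 20.2 CPM in restricted libraries and 16.7, 23.9 and 32.5 CPM in control libraries, a difference of -0.79 ± 0.16. For all 3 genes the groups overlapped.

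The transcriptional repressor ttk (FBgn0003870) had 23.8, 36.5 and 52.4 CPM in restricted libraries and 39.6, 53.2 and 65.8 CPM in control libraries, a difference of -0.48 ± 0.11. The capsid gene Arc1 differed by -0.48 ± 0.10, the kinase gene Pak3 by -0.50 ± 0.11, the endocytic adaptor Hip1 by -0.52 ± 0.11 and the semaphorin gene Sema1b by -0.46 ± 0.10. The ubiquitin ligase gene Nedd4 differed by -0.42 ± 0.10 and CG43736 and CG4768 by -0.58 ± 0.13 and -0.54 ± 0.12. After adjustment for the ovary and gut scores of each library, these 12 differences lay between -0.75 and -0.32, and those of the 12 on the higher side between 0.51 and 0.96.

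**Figure D2:**
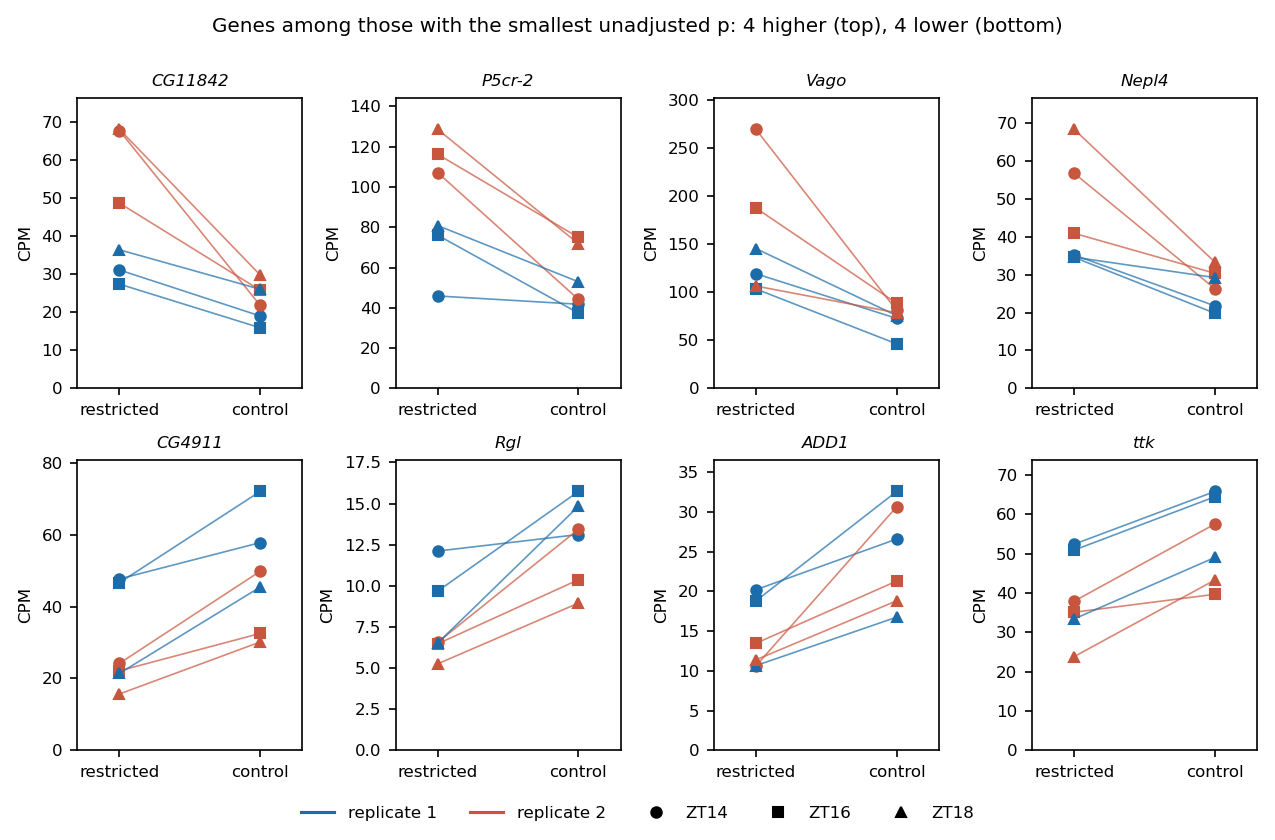
CPM of 8 genes in each library (y axis from 0), restricted left and control right, joined by time and replicate. The restricted value lies above its control partner in 6 of 6 pairs for CG11842, P5cr-2, Vago and Nepl4, and below it in 6 of 6 pairs for CG4911, Rgl, ADD1 and ttk, as the choice of these genes required.

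The diet difference at the other 9 times (36 libraries) came from a fit to all 48 libraries, with its own diet term for the early dark phase. Scaling, dispersion and the replicate term of that fit also drew on the 12 libraries used to choose these genes. The values at the other times are therefore no fully separate check. At those times 16.5% of 10070 genes passed (edgeR adjusted p under 0.05). Of the 12 genes on the higher side, 7 passed there in the same direction, among them CG11842 (0.73 ± 0.13, edgeR adjusted p = 0.00236), CG1136 (0.66 ± 0.11, adjusted p = 0.00133) and P5cr-2 (0.55 ± 0.11, adjusted p = 0.00436). Of the 12 on the lower side, 8 passed there in the same direction, among them Arc1 (-0.42 ± 0.11, adjusted p = 0.0173). CG2003 (0.12 ± 0.08), CG8079 (0.16 ± 0.07), CG6495 (0.18 ± 0.12), dl (-0.10 ± 0.06) and Pak3 (-0.13 ± 0.08) were among those that did not. Of all genes with an unadjusted p under 0.05 in the early dark phase, 765 of 1979 (38.7%) passed at the other times in the same direction.

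**Figure D3:**
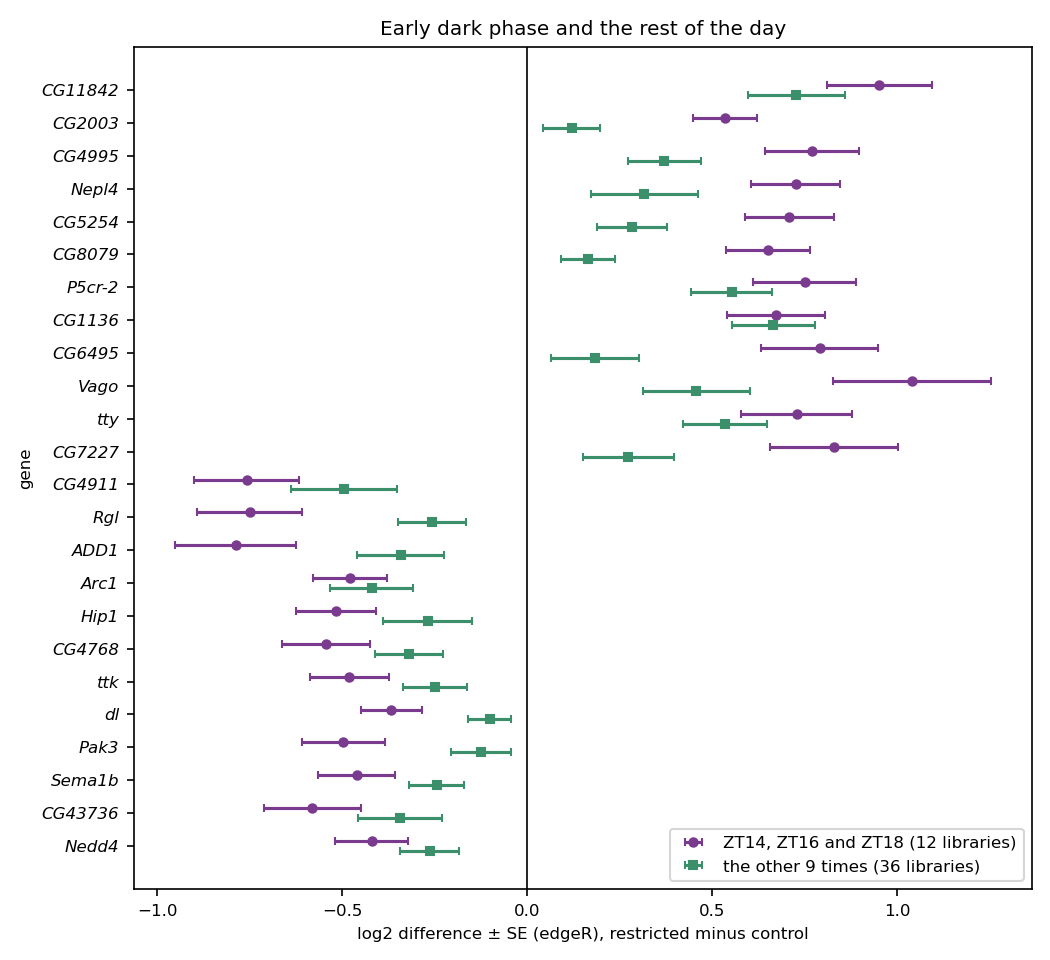
Log2 difference, restricted minus control, with its SE (x axis) for the 24 genes (y axis) at ZT14 to ZT18 (circles) and at the other 9 times (squares). All 24 lie on the same side of 0 in both, and CG2003, CG8079, dl and Pak3 lie nearer to 0 at the other times.

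Whether the diet effect of the early dark phase differed from that of the rest of the day was tested over all 48 libraries. No gene passed (0%), and 314 of 10070 (3.12%) had an unadjusted p under 0.05. The 3 genes with the smallest p at 10 CPM were Las, which encodes lipoic acid synthase, CG9855 and CG12177. Las differed by 0.47 ± 0.11 in the early dark phase and by 0.06 ± 0.05 at the other times, CG9855 by 0.21 ± 0.09 and -0.07 ± 0.04, and CG12177 by 0.40 ± 0.11 and -0.10 ± 0.07 (edgeR adjusted p = 0.982 for each difference between the windows). Las had 25.9, 34.1 and 44.9 CPM in restricted libraries and 20.2, 25.0 and 30.6 CPM in control libraries of the early dark phase, and it was higher in 6 of 6 pairs. Whether the effect differed among ZT14, ZT16 and ZT18 was also tested. Again 0 genes passed (0%), and 180 (1.89%) had an unadjusted p under 0.05.

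Clk and cyc drive the transcription of per and tim, whose proteins repress the activity of Clk and cyc. All 8 core clock genes had a log2 difference above 0, with a median of 0.20, and 3 of 8 had an unadjusted p under 0.05, where 10.3% of all genes were higher at that level. Adjusted for the ovary and gut scores, the median was 0.09 and the count 0. The median was 0.12 without either ZT14 replicate 2 library, and 0.06 on log2(TPM + 1). None passed. tim had 421, 564 and 675 CPM in restricted libraries and 282, 443 and 588 CPM in control libraries, a difference of 0.37 ± 0.16 (edgeR adjusted p = 0.226) and higher in 6 of 6 pairs. In both diets its lowest values came at ZT14 or ZT16. per had 18.4, 24.8 and 29.2 CPM in restricted libraries and 15.8, 17.8 and 29.8 CPM in control libraries, a difference of 0.28 ± 0.12 (adjusted p = 0.233). The difference was positive in both replicate series, at 0.39 in replicate 1 and 0.17 in replicate 2.

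The feedback repressor cwo had 67.7, 88.6 and 100.2 CPM in restricted libraries and 68.6, 73.6 and 81.6 CPM in control libraries, a difference of 0.24 ± 0.10 (adjusted p = 0.233). Only the restricted ZT18 replicate 2 library lay below the control values. The activator Pdp1 differed by 0.21 ± 0.15 and the light receptor cry by 0.18 ± 0.21. Clk (0.12 ± 0.13), vri (0.09 ± 0.16) and cyc (0.03 ± 0.09) differed by no more than their SE. On log2(TPM + 1) vri and cyc fell on the other side of 0, at -0.01 and -0.08. The medians of tim and per lay higher on the restricted diet in these libraries, but the spread between replicates was of the same size as the difference.

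Among 14 clock kinases and regulators, 13 had a difference below 0, with a median of -0.19. The phosphatase subunit gene tws, which acts on per protein, had 46.8, 54.7 and 90.5 CPM in restricted libraries and 66.7, 90.3 and 120 CPM in control libraries. It was lower in 6 of 6 pairs (-0.52 ± 0.14, edgeR adjusted p = 0.201) and was called lower by DESeq2 (adjusted p = 0.0189). The per kinase gene dco had 48.7, 56.2 and 81.0 CPM in restricted libraries and 71.8, 77.2 and 103 CPM in control libraries, a difference of -0.43 ± 0.13 (DESeq2 adjusted p = 0.0383). The highest restricted values of both genes came from the ZT14 and ZT16 libraries of replicate 1, the 2 restricted libraries with the highest ovary scores, and after adjustment for these 2 scores the differences were -0.38 and -0.31. jet, which encodes an F-box protein of light resetting, differed by 0.48 ± 0.15. The 7 tested genes of the list of clock and feeding outputs, such as to, had a median of 0.28, none at an unadjusted p under 0.05, and a median of 0.07 without the control ZT18 replicate 2 library and 0.08 without the control ZT14 replicate 2 library.

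**Figure D4:**
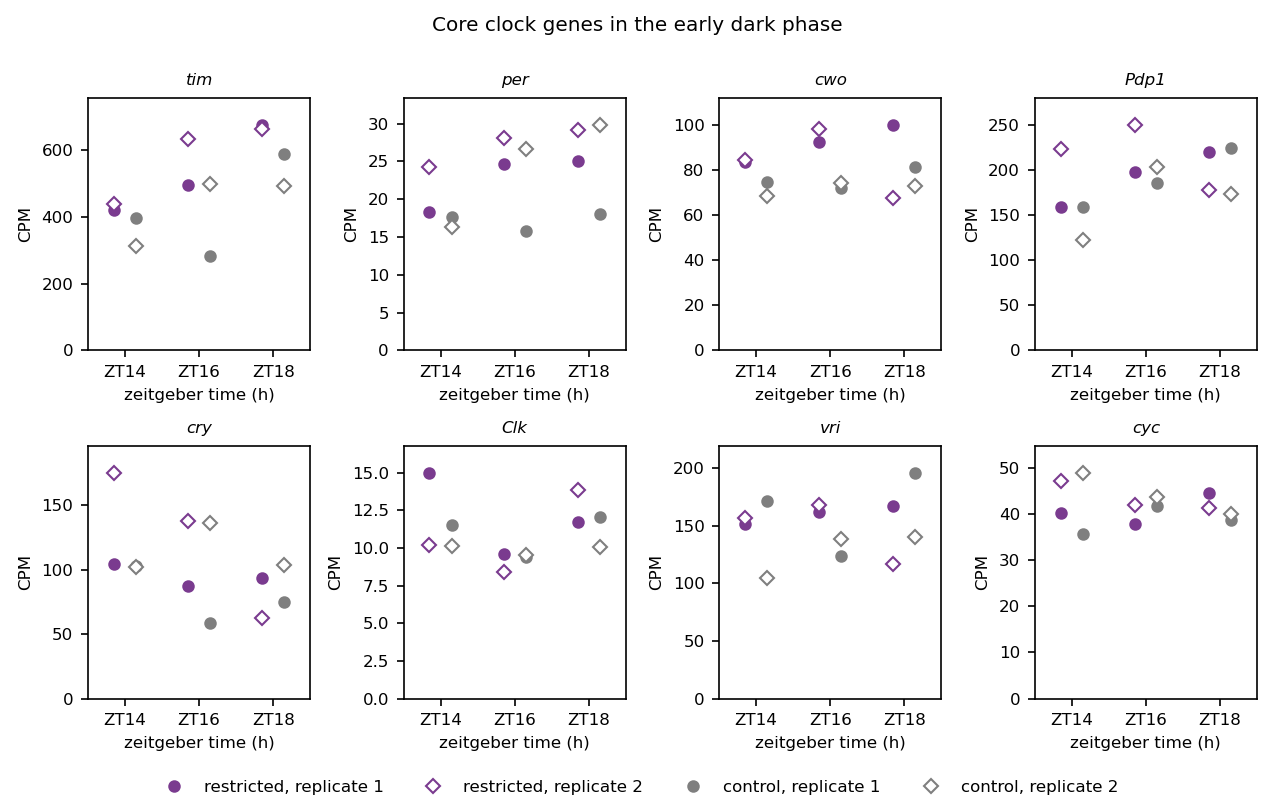
CPM of the 8 core clock genes (y axis from 0) at ZT14, ZT16 and ZT18, restricted left of control at each time, with filled circles for replicate 1 and open diamonds for replicate 2. The restricted value of tim is above the control value of the same replicate at each time, while those of vri and cyc are mixed.

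Genes of fuel use were mostly above 0. Of 71 nuclear genes of oxidative phosphorylation, 71 had a difference above 0 and 29 were higher at an unadjusted p under 0.05, against 10.3% of all genes. The median was 0.32, with 0.08 in replicate 1 and 0.51 in replicate 2, and 0.19 without the restricted ZT14 replicate 2 library. After adjustment for the ovary and gut scores the median was 0.17 and 2 of 71 genes were higher. This share is near that of all genes in that fit, 287 of 9543. On log2(TPM + 1) the median was 0.19. Complex II gene SdhD had 44.9, 66.5 and 94.5 CPM in restricted libraries and 43.7, 50.1 and 64.5 CPM in control libraries, a difference of 0.39 ± 0.11 (edgeR adjusted p = 0.202, DESeq2 adjusted p = 0.0373). The complex I subunits ND-B18 and ND-B17 differed by 0.58 ± 0.18 and 0.41 ± 0.13. Of 16 genes of the tricarboxylic acid cycle, 15 lay above 0 with a median of 0.18, or 0.10 without the restricted ZT14 replicate 2 library. At an unadjusted p under 0.05, 2 were higher, a share near the 10.3% of all genes. They were the pyruvate dehydrogenase gene Pdhb (0.41 ± 0.15) and the succinyl-CoA synthetase gene Scsalpha1 (0.30 ± 0.12). After adjustment for the ovary and gut scores the median was 0.09 and the count 0.

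Breakdown of branched-chain amino acids was the metabolic list with the largest share of genes at an unadjusted p under 0.05, 6 of 9, all higher, with a median of 0.36. The replicate series had medians of 0.20 and 0.40, and after the same adjustment the median was 0.25, with 3 genes higher. Mccc1, a subunit of methylcrotonyl-CoA carboxylase of leucine breakdown, had 81.4, 97.9 and 119 CPM in restricted libraries and 70.2, 75.3 and 80.1 CPM in control libraries. BckdhB, a subunit of the branched-chain keto acid dehydrogenase, had 150, 177 and 236 CPM in restricted libraries and 115, 133 and 148 CPM in control libraries. Neither gene's groups overlapped. Mccc1 differed by 0.38 ± 0.09 (edgeR adjusted p = 0.198, DESeq2 adjusted p = 0.00535) and BckdhB by 0.43 ± 0.11 (edgeR adjusted p = 0.201, DESeq2 adjusted p = 0.0259). At the other 9 times both passed, at 0.18 (edgeR adjusted p = 0.0133) and 0.35 (adjusted p = 0.000516). CG6638, a predicted isovaleryl-CoA dehydrogenase, differed by 0.38 ± 0.10 and was likewise called by DESeq2.

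In the wider list of amino acid and one-carbon metabolism 6 of 28 genes were higher and 2 lower at an unadjusted p under 0.05, with a median of 0.29 that was 0.19 without the restricted ZT14 replicate 2 library. With the marker scores in the fit 0 genes were at that level in either direction. The tryptophan dioxygenase gene v had 129, 184 and 232 CPM in restricted libraries and 84.8, 115 and 178 CPM in control libraries, a difference of 0.55 ± 0.15 (DESeq2 adjusted p = 0.0311). The tyrosine catabolism gene hgo differed by 0.51 ± 0.18 and AhcyL1, a relative of adenosylhomocysteinase, by -0.43 ± 0.15. The purine synthesis gene Prat2 had 356, 533 and 686 CPM in restricted libraries and 246, 364 and 481 CPM in control libraries, a difference of 0.49 ± 0.12 (DESeq2 adjusted p = 0.00881).

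Of 15 glycolytic genes, 14 lay above 0 with a median of 0.24, and 3 had an unadjusted p under 0.05. Without the restricted ZT14 replicate 2 library the median was 0.14, and without the restricted ZT18 replicate 1 library it was 0.15. After adjustment it was 0.18, with 1 gene higher. Ldh, lactate dehydrogenase, had 15.4, 48.6 and 74.1 CPM in restricted libraries and 16.8, 25.5 and 52.6 CPM in control libraries. It was lower only in the ZT14 pair of replicate 1, and differed by 0.63 ± 0.14 (edgeR adjusted p = 0.198, DESeq2 adjusted p = 0.00926). Pglym78 and Pgk, of the lower part of the pathway, differed by 0.45 ± 0.17 and 0.34 ± 0.14. Of 19 genes for trehalose, glycogen and gluconeogenesis, 4 were higher at an unadjusted p under 0.05, with a median of 0.30 that was 0.14 without the restricted ZT14 replicate 2 library and 0.19 without the restricted ZT18 replicate 1 library. After adjustment for the marker scores the median was 0.12 and the count 0, where the unadjusted count stood beside 10.3% of all genes. The trehalose transporter gene Tret1-1 had 840, 1272 and 1488 CPM in restricted libraries and 622, 882 and 1075 CPM in control libraries (0.47 ± 0.16), and the fructose bisphosphatase gene fbp differed by 0.46 ± 0.17.

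Lipid lists followed the same pattern with small differences. Of 19 genes of fatty acid oxidation 18 lay above 0 and 6 were higher at an unadjusted p under 0.05, with a median of 0.29 and nearly equal medians in replicate 1 (0.28) and replicate 2 (0.22). After adjustment the median was 0.23 and 2 genes were higher. Mcad, the medium-chain acyl-CoA dehydrogenase, had 452, 784 and 1057 CPM in restricted libraries and 371, 471 and 792 CPM in control libraries, a difference of 0.47 ± 0.16. The hydroxyacyl-CoA dehydrogenase gene scu differed by 0.47 ± 0.16 and the predicted isomerase gene CG4594 by 0.37 ± 0.13. Among 19 genes of fatty acid and triglyceride synthesis 3 were higher, beside 10.3% of all genes, with a median of 0.21. The median was 0.31 in replicate 1, -0.0036 in replicate 2 and 0.07 without the control ZT16 replicate 1 library. After adjustment 1 gene was higher. The 3 were led by the diacylglycerol acyltransferase gene mdy (0.46 ± 0.13). It had 89.4, 130 and 173 CPM in restricted libraries and 64.2, 85.5 and 153 CPM in control libraries. Gpat4 differed by 0.29 ± 0.12 and bigmax, the partner of the sugar sensor Mondo, by 0.43 ± 0.19. Of 13 genes of lipolysis and lipid droplets 2 were higher, beside 10.3% of all genes, with a median of 0.10. After adjustment the median was 0.02 and the count 0. The median was -0.0064 on log2(TPM + 1) and -0.013 without the control ZT16 replicate 1 library. The 2 were Lip4 (0.46 ± 0.19) and AkhR, the receptor of adipokinetic hormone (0.46 ± 0.20). An alpha-glucosidase gene that answers to adipokinetic hormone and insulin-like peptides, tobi, differed by -0.41 ± 0.22. The lipid carrier genes Karl and Npc2b differed by 0.51 ± 0.18 and 0.55 ± 0.21.

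Of 17 genes for very-long-chain lipids and hydrocarbons, the products of oenocytes, 16 lay above 0 with a median of 0.34. The replicate medians were 0.07 and 0.58, and the median of the 12 libraries was 0.19 without the control ZT14 replicate 2 library and 0.22 without the restricted ZT14 replicate 2 library. After adjustment for the ovary and gut scores the median was 0.10, and the genes higher at an unadjusted p under 0.05 were 1 in place of 3. CG17562, a predicted fatty acyl-CoA reductase, had 73.0, 121 and 166 CPM in restricted libraries and 66.6, 82.9 and 96.8 CPM in control libraries, a difference of 0.50 ± 0.13 (DESeq2 adjusted p = 0.0381). Its paralogue CG17560 differed by 0.48 ± 0.16, and Cpr, the reductase that serves Cyp4g1, by 0.43 ± 0.19. All 3 were higher in 6 of 6 pairs. The oenocyte score was also higher in 6 of 6 pairs, but Cyp4g1, Cpr, eloF, Desat1, Fad2, spidey and FarO stand in both lists. The list and the score are therefore not independent. The part of oenocyte content in these values was not tested.

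**Figure D5:**
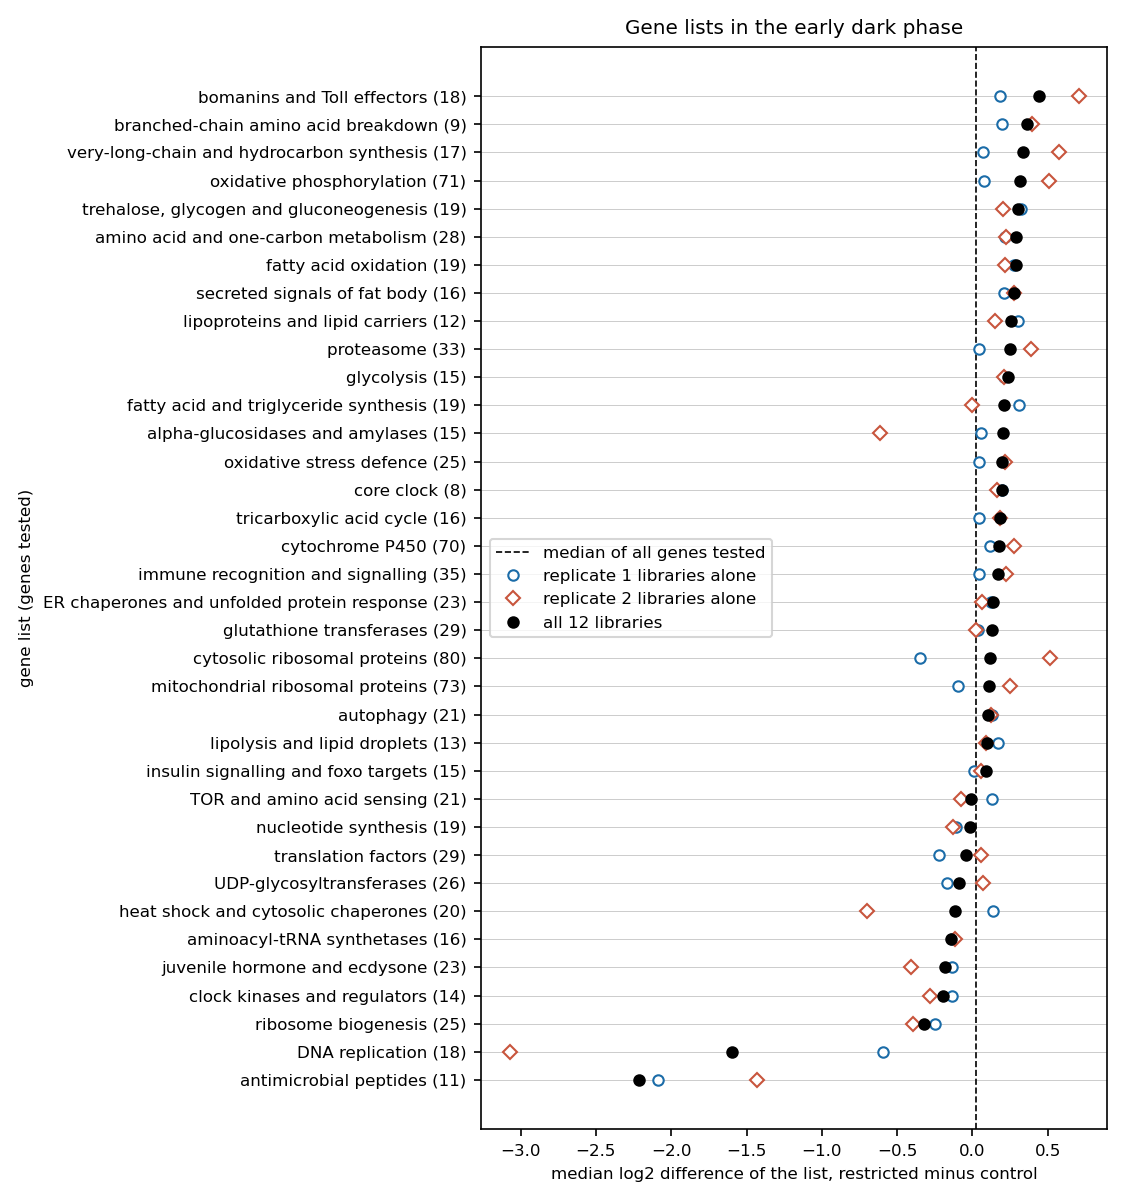
Median log2 difference, restricted minus control, of each gene list with at least 8 tested genes (y axis; tested genes in parentheses), over all 12 libraries (filled circles), replicate 1 (open circles) and replicate 2 (open diamonds); the dashed line is the median of all genes. Most metabolic lists lie between 0 and 0.5, while DNA replication and antimicrobial peptides lie below -1.5.

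Signals between fat body and brain showed a few differences of larger size. Of 16 secreted signals, 5 were higher and 1 lower at an unadjusted p under 0.05, and 1 and 1 after adjustment for the marker scores. ImpL2, which binds insulin-like peptides and dampens their action, had 226, 295 and 391 CPM in restricted libraries and 115, 194 and 349 CPM in control libraries. It was higher in 6 of 6 pairs, by 0.56 ± 0.18 (edgeR adjusted p = 0.209). The replicate series gave 0.25 and 0.84. sun, whose peptide stimulates insulin release, differed by 0.52 ± 0.17. Lst (limostatin), which stood in the list of fat body markers and encodes a peptide that lowers insulin release, had 333, 452 and 688 CPM in restricted libraries and 189, 308 and 397 CPM in control libraries, a difference of 0.69 ± 0.20 (DESeq2 adjusted p = 0.0443). The glypican gene dlp differed by -1.47 ± 0.39 (DESeq2 adjusted p = 0.0189), and its 2 highest restricted values, 12.6 and 9.96 CPM, came from the 2 restricted libraries with the highest ovary scores.

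Of 15 genes of insulin signalling and foxo targets, 3 were higher and 2 lower at an unadjusted p under 0.05, and 0 and 1 after adjustment. Pi3K21B, the regulatory subunit of phosphatidylinositol 3-kinase, had 17.7, 24.8 and 49.5 CPM in restricted libraries and 32.3, 43.9 and 69.0 CPM in control libraries. It was lower in 6 of 6 pairs (-0.69 ± 0.19, edgeR adjusted p = 0.208, DESeq2 adjusted p = 0.0367). The catalytic subunit gene Pi3K92E differed by -0.26 ± 0.10. Of 21 genes of TOR and amino acid sensing, 2 were higher and 2 lower, with a median of -0.01, a share in each direction near those of all genes (10.3% and 10.4%). They included Nprl2, a subunit of an inhibitor of TOR, at 0.31 ± 0.11, and the amino acid transporter gene slif at -0.67 ± 0.25. Of 21 autophagy genes 17 lay above 0 with a median of 0.10. It was 0.05 without the restricted ZT14 replicate 2 library, 0.17 without the control ZT16 replicate 2 library and 0.02 on log2(TPM + 1). Mitf, a transcription factor of lysosome and autophagy genes, differed by -0.39 ± 0.11 and was called lower by DESeq2 (adjusted p = 0.0383).

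Genes for the making and removal of proteins gave small differences, with medians that were unequal in the replicate series. None of 80 cytosolic ribosomal protein genes had an unadjusted p under 0.05. Their median was 0.11 over the 12 libraries, -0.35 in replicate 1 and 0.51 in replicate 2. It was -0.01 on log2(TPM + 1), -0.10 after adjustment for the marker scores, and -0.03 without the restricted ZT14 replicate 2 library. The germline-enriched paralogue RpS5b was the member with the largest difference, -1.62 ± 1.21, and -0.01 after adjustment for the ovary and gut scores. Of 33 proteasome genes 32 lay above 0 and 7 were higher at an unadjusted p under 0.05, with a median of 0.25, of 0.05 in replicate 1 and 0.39 in replicate 2, and it was 0.15 without the restricted ZT14 replicate 2 library. Adjusted for the marker scores, the median was 0.07 and the count 0. The subunit gene Prosbeta7 had 290, 434 and 521 CPM in restricted libraries and 269, 299 and 354 CPM in control libraries (0.39 ± 0.14), and Prosbeta1 differed by 0.42 ± 0.15. Of 23 genes of endoplasmic reticulum chaperones and the unfolded protein response 3 were higher and 1 lower, a share of higher genes near the 10.3% of all genes, with Hrd3 (0.22 ± 0.08) and Der-1 (0.41 ± 0.16) of protein disposal among the higher. Mitochondrial ribosomal proteins (73 genes, median 0.11), translation factors (29 genes, -0.05), aminoacyl-tRNA synthetases (16 genes, -0.14) and ribosome biogenesis (25 genes, -0.32) held 4 genes at an unadjusted p under 0.05 in all.

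The small heat shock genes Hsp26 and Hsp27, which are also transcribed in ovaries, differed by -1.87 ± 0.70 and -2.11 ± 0.91, and DESeq2 called Hsp26 lower (adjusted p = 0.0319). Hsp26 had 6.41, 14.0 and 92.2 CPM in restricted libraries and 18.1, 92.9 and 162 CPM in control libraries. Its difference was -0.44 in replicate 1 and -3.39 in replicate 2, and -1.19 after adjustment for the ovary and gut scores. The ovary score differed by -0.94 in replicate 1 and by -2.66 in replicate 2, and its part in the Hsp26 difference was not tested beyond that fit. DnaJ-1, a cochaperone, differed by 0.37 ± 0.16. Of 25 genes of oxidative stress defence 3 were higher and 1 lower, which for the higher genes is near the 10.3% of all genes. Gclm, the modifier subunit of the enzyme that limits glutathione synthesis, had 176, 316 and 420 CPM in restricted libraries and a median of 194 and a highest value of 277 CPM in control libraries, a difference of 0.49 ± 0.13 (DESeq2 adjusted p = 0.0201). Sod1 differed by 0.52 ± 0.18.

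Detoxifying enzymes were mixed. Of 70 cytochrome P450 genes 12 were higher and 2 lower at an unadjusted p under 0.05, where all genes had 10.3% higher and 10.4% lower, with a median of 0.18. The median was 0.08 without the control ZT16 replicate 1 library, 0.09 without the control ZT14 replicate 2 library, 0.12 without the restricted ZT14 replicate 2 library and 0.28 without the control ZT16 replicate 2 library. With the marker scores in the fit 4 were higher and 0 lower. Cyp12e1, a mitochondrial P450, had 15.2, 23.3 and 33 CPM in restricted libraries and 8.65, 14.2 and 18.1 CPM in control libraries, a difference of 0.76 ± 0.21 that also passed at the other 9 times (0.53, edgeR adjusted p = 0.00272). Cyp4g15 and Cyp313a4 differed by 0.63 ± 0.17 and 0.66 ± 0.20. Of 29 glutathione transferase genes 4 were higher and 2 lower, with GstE6 at -0.41 ± 0.13 (DESeq2 adjusted p = 0.0498). The share of higher genes was near that of all genes and the share of lower genes below it. After adjustment the median was 0.04, with 0 genes higher and 0 lower. Of 26 UDP-glycosyltransferase genes 3 were higher and 0 lower, the higher share near that of all genes, with Ugt49C1 at 0.64 ± 0.18. After adjustment 2 were higher and 0 lower.

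Immune genes went in different directions. Of 18 bomanins and other Toll effectors, short secreted peptides that follow Toll signalling, 7 were higher at an unadjusted p under 0.05 and none lower, with a median of 0.45. The median was 0.18 in replicate 1, 0.71 in replicate 2, 0.21 without the restricted ZT14 replicate 2 library and 0.04 after adjustment for the ovary and gut scores, where 1 gene was higher. BomS6 had 9.77, 16.2 and 26.9 CPM in restricted libraries and 5.63, 7.52 and 12.0 CPM in control libraries, a difference of 1.01 ± 0.25 (edgeR adjusted p = 0.201, DESeq2 adjusted p = 0.0250). BomS2 and BomBc2 differed by 0.90 ± 0.28 and 0.72 ± 0.25 and were higher in 6 of 6 pairs. These genes have close copies, and reads shared between copies may have been divided among them.

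Of 35 genes of immune recognition and signalling, 23 lay above 0 with a median of 0.17, and 7 were higher and 4 lower at an unadjusted p under 0.05. After adjustment the median was -0.0046, with 1 higher and 2 lower. dl, a transcription factor of the Toll pathway, had 22.8, 29.2 and 38.0 CPM in restricted libraries and 27.4, 37.8 and 49.8 CPM in control libraries (-0.37 ± 0.08, DESeq2 adjusted p = 0.0119). The receptor gene Tl differed by -0.42 ± 0.11 (DESeq2 adjusted p = 0.0311). Both were lower in 6 of 6 pairs.

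The 11 antimicrobial peptide genes had a median of -2.22, with 2 lower at an unadjusted p under 0.05, Mtk (-3.35 ± 1.41) and DptB (-2.52 ± 1.07). DptB had 1.95, 3.10 and 6.09 CPM in restricted libraries and 3.82, 6.01 and 263 CPM in control libraries. Mtk had 0.478, 0.850 and 2.07 CPM in restricted libraries and 0.787, 1.96 and 204 CPM in control libraries. Both highest values came from the control ZT14 replicate 1 library, and the next control value of DptB was 21.1 CPM, in the ZT16 replicate 2 library. Without the control ZT14 replicate 1 library the median of the list was -0.78, and without the control ZT16 replicate 2 library it was -1.31. The 4 tested Turandot and stress peptide genes had a median of -0.64, which was 0.75 without the control ZT16 replicate 2 library, 0.23 without the restricted ZT16 replicate 1 library and 0.10 without the restricted ZT16 replicate 2 library.

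DNA replication genes had the lowest median of the lists other than antimicrobial peptides and markers. All 18 lay below 0, with a median of -1.60, and 14 were lower at an unadjusted p under 0.05, against 10.4% of all genes. DESeq2 called 5 lower, among them PolA1, the catalytic subunit of DNA polymerase alpha, and Cdk2. PolA1 had 1.10, 3.54 and 17.5 CPM in restricted libraries and 4.38, 20.6 and 37.9 CPM in control libraries, a difference of -1.80 ± 0.58 (edgeR adjusted p = 0.209, DESeq2 adjusted p = 0.0311). The ribonucleotide reductase genes RnrL and RnrS, which supply deoxynucleotides, differed by -1.57 ± 0.62 and -1.24 ± 0.50. The ovary score was also lower on average, but it was higher on the restricted diet in both ZT16 pairs (1.06 and 0.54). The DNA replication median was -0.60 in replicate 1 and -3.07 in replicate 2, next to -1.18 and -3.06 for the ovary and eggshell list. At ZT14, ZT16 and ZT18 it was -2.38, -1.39 and -1.30, next to -3.62, 0.40 and -3.83 for that list. After adjustment for both marker scores the DNA replication median was -0.88, with 0 genes at an unadjusted p under 0.05. The ovary list itself had -0.32 in that fit. Its own genes make up the ovary score, so that value cannot be set against the -0.88. The part of ovary content in the DNA replication differences was not tested beyond that fit.

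Of the ovary and eggshell markers 27 of 29 lay below 0, with a median of -1.71, and 3 were lower at an unadjusted p under 0.05, near the 10.4% of all genes. The median was -1.08 without the control ZT18 replicate 2 library and -2.64 without the restricted ZT16 replicate 1 library. Among them, bcd, a maternal transcript, had 0, 0.924 and 9.75 CPM in restricted libraries and 2.02, 11.1 and 19.6 CPM in control libraries (-2.24 ± 0.84), and the germline gene gcl differed by -0.66 ± 0.21. Fcp3C, a follicle cell gene, had 0.329, 0.457 and 0.707 CPM in restricted libraries and 0.112, 7.26 and 41.1 CPM in control libraries (-3.91 ± 1.13, DESeq2 adjusted p = 0.00830). The gut protease gene Jon25Biii ranged from 0 to 41.9 CPM in restricted and from 0.0995 to 595 CPM in control libraries (-6.04 ± 1.74). The yolk protein genes Yp1, Yp2 and Yp3, transcribed in the fat body itself, differed by -0.09 ± 0.25, -0.06 ± 0.31 and -0.10 ± 0.28. Their differences had opposite signs in the replicate series, 0.11 to 0.48 in replicate 1 and -0.62 to -0.28 in replicate 2.

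Of 23 genes of juvenile hormone and ecdysone 6 were lower and 1 higher at an unadjusted p under 0.05, against 10.4% and 10.3% of all genes, with a median of -0.18. After adjustment for the ovary and gut scores the median was 0.05, with 1 gene lower and 0 higher. Without the restricted ZT18 replicate 1 library the median was -0.10, without the control ZT18 replicate 1 library -0.12, without the control ZT16 replicate 2 library -0.27 and without the restricted ZT16 replicate 1 library -0.31. ftz-f1, a nuclear receptor gene, had 10.8, 15.4 and 32.6 CPM in restricted libraries and 22.2, 35.4 and 52.4 CPM in control libraries, and it was lower in 6 of 6 pairs (-0.92 ± 0.23, edgeR adjusted p = 0.201, DESeq2 adjusted p = 0.0164). E23, a transporter gene induced by ecdysone, differed by -0.92 ± 0.32 and usp, the partner of the ecdysone receptor, by -0.26 ± 0.09. After the same adjustment the values of ftz-f1, E23 and usp were -0.61, -0.45 and -0.19.

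Of 13 neuron markers 12 lay above 0 with a median of 1.10. At an unadjusted p under 0.05, 6 were higher and 1 lower, against 10.3% and 10.4% of all genes. hig, which encodes a protein of the synaptic cleft, had the smallest p of all genes and was named after its values were seen. It had 0.842, 1.86 and 17.6 CPM in restricted libraries and 0.108, 0.430 and 1.44 CPM in control libraries (2.61 ± 0.32, edgeR adjusted p = 0.118). The glutamate decarboxylase gene Gad1 had 0.421, 1.74 and 20.2 CPM in restricted libraries and 0, 0.112 and 4.32 CPM in control libraries (3.32 ± 0.55). The restricted ZT14 replicate 1 library held the highest value of both, and the control library of that time and replicate held the highest control value of both. The glutamate transporter gene VGlut and the synaptic gene Syt1 differed by 2.99 ± 0.72 and 1.47 ± 0.48. Without the restricted ZT14 replicate 1 library the median of the list was 0.62. Adjusted for the ovary and gut scores, it was 0.65, with 2 genes higher, and on log2(TPM + 1) it was 0.11.

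Whether the diet effect differed between the replicate series was tested as an interaction, and 0 genes passed (0%), while 767 (8.04%) had an unadjusted p under 0.05. The 3 genes with the smallest p at 10 CPM were CG8112, Cyp9c1 and RpL22. CG8112, a predicted sterol acyltransferase, had 8.06, 8.59 and 10.4 CPM in the 3 restricted and 15.3, 19.1 and 29.1 CPM in the 3 control libraries of replicate 1. In replicate 2 it had 47.3, 49.7 and 82.8 CPM in restricted and 25.5, 35.5 and 39.9 CPM in control libraries. Its interaction was 1.99 (edgeR adjusted p = 0.157). Those of Cyp9c1 and RpL22 were 1.31 and 1.20 (edgeR adjusted p = 0.519 for each).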

How the data were processed

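RNA of dissected abdominal fat tissue was sequenced from 48 libraries, of which the 12 at ZT14, ZT16 and ZT18 were compared by diet. Reads were quantified with kallisto 0.44.0 and checked with FastQC, per the submitters' processing notes; the annotation, the summing of transcripts to genes and the strand setting were not given in the sources used here. The authors deposited estimated counts per gene, which are the basis of the tests, and TPM per gene, which is scaled for transcript length and library and keeps no depth. Estimated counts need not be whole, since reads shared by near-identical copies are divided, and they were rounded before testing.

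Genes were kept by the edgeR filter at a count of 10 and fitted with edgeR 4.0.16 (R 4.3.3, TMM scaling, quasi-likelihood test, p-values adjusted by Benjamini-Hochberg across the whole table) with time as a factor and replicate as a block. DESeq2 1.42.0 and limma 3.58.1 served as alternatives. The method was also run on simulated counts with the same dispersion for every gene and no time, replicate or tissue differences. That run cannot show how the method behaves where libraries differ in tissue content, as these do. Marker scores are means of log2 CPM (prior count 2), compared by exact sign permutation over the 6 pairs of a time and a replicate. Libraries were matched in these pairs by replicate number, a pairing that the labels do not state. P-values measure the spread between these libraries. The rule for named genes took the core clock genes, up to 3 genes of each list with the smallest unadjusted p, and the genes that passed with the largest changes. No gene passed, so the 12 genes of smallest unadjusted p in each direction were used in their place. Further genes were named after their values were seen, which is stated beside them. Times, lists and genes were chosen with earlier results of these data known.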

Additional observations from a re-analysis of the deposited data

Results flagged for a closer look

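Single libraries stood far from the other 5 of their diet in 10 of 288 groups of 6 values checked with Dixon's criterion, where chance gives about 1 in 20. Among marker scores, the Malpighian tubule score was lowest in the restricted ZT16 replicate 2 library (3.40) and the spermatheca score was highest in the restricted ZT16 replicate 1 library (2.93), both as mean log2 CPM. The share of ribosomal RNA was highest in the control ZT16 replicate 2 library (4.80%) and the mitochondrial share was highest among restricted libraries in ZT14 replicate 1 (4.56%).

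Among genes, vri was lowest in the restricted ZT18 replicate 2 library (116.5 CPM), and GstE6 was highest in the restricted ZT16 replicate 1 library (37.9 CPM). Vago was lowest in the control ZT16 replicate 1 library (46.3 CPM) and CG1136 was highest in the control ZT18 replicate 1 library (26.3 CPM). The neuronal genes Gad1 (4.32 CPM) and Nplp1 (5.12 CPM) were highest among control libraries in ZT14 replicate 1.

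For 4 values the diet difference had one sign in every pair of replicate 1 and the other sign in every pair of replicate 2. How many such splits chance gives was not tested. CG8112, Cyp9c1 and RpL22 were checked because they had the smallest p of the interaction, so their flags follow from that choice. The mitochondrial share had a replicate 2 difference that exceeded that of replicate 1 by 2.31 percentage points, and this was not tested. The mean log2 differences of the pairs in replicate 2 exceeded those in replicate 1 by 1.98 for CG8112, 1.31 for Cyp9c1 and 1.19 for RpL22 (edgeR adjusted p of the interaction 0.157, 0.519 and 0.519).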

How the results depend on the processing

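The count of genes past an adjusted p of 0.05 was 0 with edgeR and 311 with DESeq2. It was 1 with 6 pair blocks (Hasp), 3 at ZT16 alone, 1 with limma on log2(TPM + 1) and 1 on log2(TPM + 0.1) (CG11842 in both). It ranged from 0 to 1 when single libraries were left out, and it was 0 under the other settings, including without the replicate block, with marker scores as covariates and with library weights. At an unadjusted p under 0.05 the leave-one-out fits gave 1029 to 2417 genes, and the fit with ovary and gut scores as added terms gave 511 against 1979 without them. DESeq2 called 138 genes for the difference between replicates, 5 for the difference between times and 3 for the difference between the early dark phase and the other times, where edgeR called 0. The correlations of same-numbered libraries between diets, as deviations from their group means, were 0.04, 0.17 and 0.18 at ZT14, ZT16 and ZT18. These values give little ground for pairing libraries by number. The counts of pairs and the exact permutation p nevertheless match libraries by time and number, and the main fit blocks on replicate. They are limited by this. Without the replicate block 1332 genes had an unadjusted p under 0.05, against 1979 with it.

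Of 3960 gene values recomputed for 132 genes, 3832 kept their direction and side of the threshold, 64 came to pass it, and 64 turned to the other side of 0, in 12 genes. The cause was not tested. On log2(TPM + 1) the oenocyte score was 0.23 (exact p = 0.0625), the muscle score -0.0116, the Malpighian tubule score -0.0583 and the spermatheca score -1.02 (exact p = 0.0313). Leaving out pairs gave -0.12 to 0.24 for the fat body score, -0.12 to 0.30 for the Malpighian tubule score and -0.463 to 0.605 points for the ribosomal RNA share. Without a change of sign, the oenocyte score ranged from 0.20 to 0.41, the gut score from -2.12 to -0.34 and the spermatheca score from -1.55 to -0.72.

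Clk was -0.0717 at ZT16 alone and -0.0463 with 3 scores as covariates. cyc was -0.00613 with DESeq2, -0.00148 with its size factors, -0.00884 without the filter, -0.0532 in replicate 2, -0.0989 at ZT16, -0.0837 and -0.0865 on log2 TPM with pseudocounts of 1 and 0.1, -0.0583 with 2 covariates, -0.0175 over 48 libraries and -0.0249 to 0.0693 with single libraries left out. vri was -0.00987 in replicate 1, -0.25 at ZT18, -0.0105 and -0.0113 on log2 TPM and -0.00156 with 3 covariates. Pdp1 was -0.000413 at ZT18, and cry was -0.00699 in replicate 2 and -0.20 at ZT18.

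Pi3K92E was 0.00464 at ZT16. In replicate 1, at ZT14 and at ZT16, Yp1 was 0.11, 0.35 and 0.000988, Yp2 was 0.48, 0.33 and 0.0792, and Yp3 was 0.33, 0.30 and 0.0105. With single libraries left out they ranged from -0.22 to 0.0519, from -0.23 to 0.16 and from -0.24 to 0.0754. CG8112 was 0.32 without the replicate block, 0.78 in replicate 2, 0.0779 at ZT18, 0.0765 with library weights and -0.37 to 0.0525 with single libraries left out. Cyp9c1 was -0.59 in replicate 1, -0.0461 and -0.0495 on the log2 TPM scales, -0.15 and -0.20 with 2 and 3 covariates and -0.0754 to 0.21 with single libraries left out. RpL22 was 0.00911 without the replicate block, 0.46 in replicate 2, 0.15 at ZT14 and -0.24 to 0.0297 with single libraries left out. Low genes of neurons, ovary and antimicrobial defence rested on few counts in several libraries, which limits their values.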

Other observations

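Proc, Ms, Lk, Dh31 and Nplp1, each of which encodes a neuropeptide, were picked after their values were seen from the 133 genes that DESeq2 called higher on the restricted diet, and they stand for no tested list. Proc, which encodes proctolin, had 2.02, 5.53 and 15.5 CPM (lowest, median and highest) in restricted libraries and 0, 0.586 and 7.84 CPM in control libraries, a difference of 2.78 ± 0.56 (DESeq2 adjusted p = 0.000396). Ms, myosuppressin, had 6.03, 8.35 and 15.6 CPM in restricted libraries and 1.08, 3.69 and 4.96 CPM in control libraries, without overlap. The diuretic peptide genes Lk and Dh31 differed by 1.5 ± 0.30 and 2.45 ± 0.54 and Nplp1 by 1.83 ± 0.44. None passed in edgeR (adjusted p between 0.198 and 0.201). Except for Ms and Lk, the highest restricted value was that of ZT14 replicate 1, the library with the highest neuron score, and its part in these differences was not tested.

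CycE, aurA and fzy were likewise picked after their values were seen from the 178 genes that DESeq2 called lower. CycE, which drives entry into S phase, had 0.329, 1.66 and 22.5 CPM in restricted libraries and 5.51, 17.9 and 39.2 CPM in control libraries (-2.26 ± 0.79, DESeq2 adjusted p = 0.0311). The mitotic kinase gene aurA and fzy, an activator of the anaphase-promoting complex, differed by -2.06 ± 0.68 and -2.15 ± 0.69. DESeq2 called 16 of 53 tested histone gene entries lower and 0 higher, against 1.87% and 1.39% of all genes, and edgeR called 0. Their median was -2.34, and -2.16 after adjustment for ovary and gut scores. Histone copies are near-identical and share reads, so these entries are not independent.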
